A study of Sus scrofa with 4 samples.

Results

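Laminins, nidogens and perlecan are the glycoproteins that, with type IV collagen, build basement membranes. The set described here holds 10 genes of the 26921 in each deposited table: the laminin chains LAMA1, LAMA2, LAMA4, LAMA5, LAMB1, LAMB2 and LAMC1, the nidogens NID1 and NID2, and HSPG2, which encodes perlecan. They were chosen by gene symbol, and all 10 were found and passed the filter on low counts. RNA was sequenced from 2 libraries of ZBTB16 knockdown cells and 2 of control cells, all taken from pig testis and labelled as immature spermatogonia. ZBTB16 is a zinc finger transcription factor of undifferentiated spermatogonia. The series' design plans knockdown by a short hairpin RNA delivered with a lentivirus. The control genotype is given as WT, and the labels do not say whether those cells received a vector, so effects of the virus and of the knockdown cannot be told apart. Strain and age of the donor animals are not given for these libraries, and the labels say that the RNA came from 2 independent experiments.

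A laminin is a trimer of 1 alpha, 1 beta and 1 gamma chain, and most laminins share the gamma chain that LAMC1 encodes. Laminins polymerise on the cell surface, where integrins and dystroglycan bind them. Nidogens and perlecan tie that sheet to the type IV collagen network. In the testis the basement membrane under the seminiferous epithelium is laid down by Sertoli cells and peritubular myoid cells, and spermatogonia rest on it.

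Nidogens bind laminin through a short loop of the gamma chain, mapped in mouse laminin. The coding bases of that loop are shown because the chain and both of its nidogen partners are members of the set. They were read from the Sscrofa 11.1 genome in the coding exons that RefSeq annotates, 5′ to 3′ on the plus strand, for LAMC1 (chr9:124382837-124382890) and for the related, weakly transcribed LAMC3 (chr1:271048196-271048249). Capitals mark the 21 bases of the loop.
LAMC1: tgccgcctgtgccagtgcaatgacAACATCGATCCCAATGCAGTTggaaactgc
LAMC3: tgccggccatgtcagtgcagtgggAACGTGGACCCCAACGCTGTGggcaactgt
Of the 54 bases 39 were the same in both genes, and of the 21 bases of the loop 15 were.

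Of the 10 genes 5 rose in the knockdown (HSPG2, NID2, LAMA1, LAMC1 and LAMA5), 1 fell (LAMA4) and 4 did not pass (LAMA2, LAMB1, LAMB2 and NID1). A call is a Benjamini-Hochberg adjusted p under 0.05 in edgeR's quasi-likelihood test of the counts of all genes, and fold changes are knockdown over control. Of all 15763 genes tested 46.4% were called, 22.7% as higher and 23.8% as lower. The median log2 fold change was 0.10 over the 10 genes and -8e-04 over all genes tested. Length-corrected, as defined below, the median was -0.06 over the 10 genes and -0.01 over all genes, and corrected for length and GC content it was 0.02 over the 10 genes. The changes were small, with fitted folds from 0.933 to 1.35.

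The libraries held 18500447 and 16548342 expected counts in the knockdown and 17283536 and 15983390 in the control, and the 10 genes took 0.413% and 0.410% of them in the knockdown against 0.377% and 0.372% in the control. Sequenced fragments averaged 266.4 and 267.4 bases in the knockdown libraries, against 325.7 and 326.7 bases in the control libraries, so fragment length splits the libraries exactly as the groups do and the 2 cannot be told apart. The members are long, with mean deposited transcript lengths from 3926 bases (LAMA4) to 14363 bases (HSPG2). Results are therefore also given from an edgeR fit that takes out each library's smooth trend of counts with transcript length, called length-corrected here, and from one that takes out the trend with GC content too. ZBTB16 itself had 1.37 and 1.34 FPKM in the knockdown against 1.77 and 1.76 FPKM in the control (log2 -0.36, SE 0.109, adjusted p = 0.00338, edgeR). The log2 change was -0.36 with DESeq2 (adjusted p = 0.0811), -0.23 by limma on log2(FPKM + 1) (adjusted p = 0.0685) and -0.11 by limma on log2(TPM + 1) (adjusted p = 0.332), so those fits did not call it. Length-corrected, ZBTB16 was called as lower at -0.51 (adjusted p = 2.59e-05). Corrected for length and GC content it was called as lower at -0.45 (adjusted p = 2.79e-04).

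FPKM, which divides fragments by transcript length and library size, gives levels that can be set beside each other between genes. All FPKM values of a knockdown library summed to 634962 and 632881, against 739808 and 742383 in the control libraries. TPM, the same quantity scaled to a fixed total, is therefore 1.57 and 1.58 times FPKM in the knockdown libraries and 1.35 times in both control libraries, and the median log2 change of all genes was 0.14 on the log2(TPM + 1) scale and -0.05 on the log2(FPKM + 1) scale. In FPKM, LAMB1 was the highest member in both groups, at 133 ± 0.417 in the knockdown and 132 ± 1.34 in the control (SD, n = 2 each). LAMA2 was the lowest, at 5.21 ± 0.311 in the knockdown and 5.08 ± 0.177 in the control. Below LAMB1 came LAMC1 and then LAMA4 in the knockdown, and LAMA4 and then LAMC1 in the control. The deposited length of LAMA4, which enters its FPKM, differed between the groups, as given below. In the knockdown no neighbours in the order of levels overlapped. In the control NID2 and NID1 overlapped, at 55.6 ± 0.785 and 54.8 ± 0.403 FPKM.

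**Figure D1:**
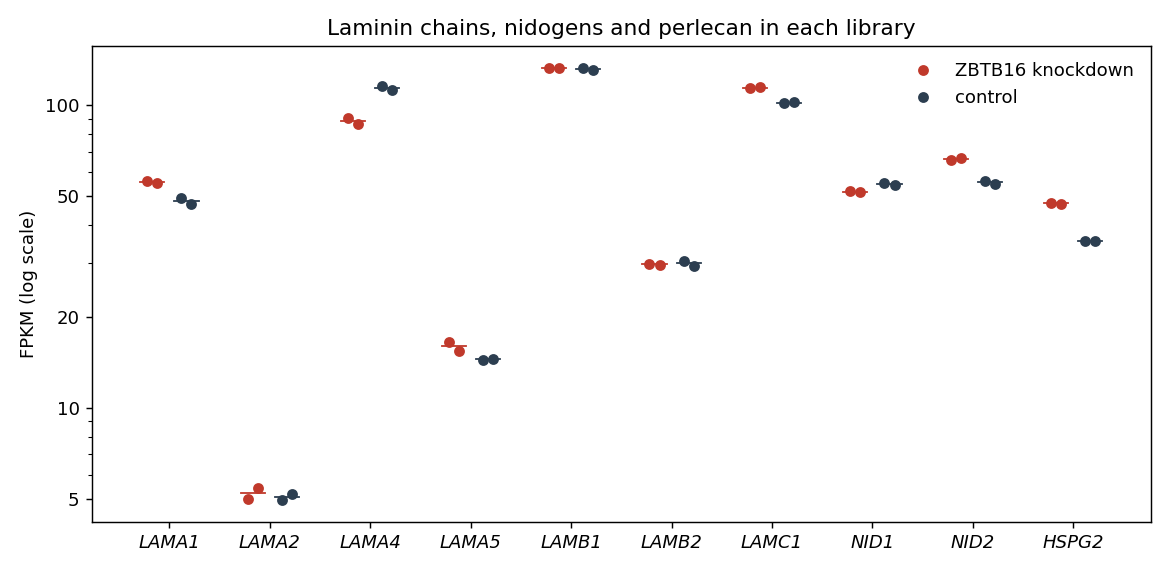
FPKM of each member on a log axis, with 2 knockdown libraries (left of each gene, red) and 2 control libraries (right, dark) as points and the mean as a line. LAMA4 is the member with the clearest lower points in the knockdown (90.7 and 86.7 against 115 and 112 FPKM), and HSPG2 the one with the clearest higher points (47.6 and 47.0 against 35.6 and 35.5 FPKM).

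Among the alpha chains, which carry the sites for cell receptors, LAMA1 and LAMA5 rose and LAMA4 fell. LAMA1, the alpha chain of early embryonic laminin (chromosome 6, 100332843 to 100468457, plus strand, Sscrofa 11.1), had 56.0 and 55.2 FPKM in the knockdown libraries against 49.4 and 47.2 FPKM in the control libraries. Both knockdown libraries were above both control libraries. By counts it was 1.17-fold higher (log2 0.23, SE 0.0223, adjusted p = 3.74e-18, edgeR). Length-corrected, its log2 difference was 0.02 and did not pass (adjusted p = 0.530). Corrected for length and GC content it passed at 0.10 (adjusted p = 2.24e-05).

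LAMA4 (chromosome 1, 78071990 to 78224564, minus strand) encodes a short alpha chain that lacks the N-terminal domain other alpha chains use to polymerise. In CPM, counts scaled to library size with TMM, it had 353 and 350 in the knockdown against 383 and 370 in the control, and the groups did not overlap. Its counts fell to 0.933 times the control level (log2 -0.10, SE 0.024, adjusted p = 2.09e-04, edgeR). In FPKM the gap was wider, at 90.7 and 86.7 in the knockdown against 115 and 112 in the control. RSEM divides the counts by a length that follows its estimate of which transcripts of the gene are present. For LAMA4, for which the files list further transcripts beside the RefSeq one, that length was 4135 and 4269 bases in the knockdown and 3658 and 3643 bases in the control. The log2 change was -0.36 by limma on log2(FPKM + 1) (adjusted p = 0.00159) and -0.17 length-corrected (adjusted p = 1.82e-10). It was negative with an adjusted p of at most 0.0382 in all 16 alternatives. The levels of single LAMA4 transcripts were not analysed here.

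LAMA5, the alpha chain widespread in mature epithelia (chromosome 17, 61698370 to 61747795, minus strand), had 16.5 and 15.3 FPKM in the knockdown against 14.4 and 14.5 FPKM in the control. By counts it was 1.12-fold higher (log2 0.17, SE 0.0324, adjusted p = 3.42e-06, edgeR), and the log2 change lay between 0.11 and 0.22 when a library was left out. The call was lost by limma on log2(FPKM + 1) (adjusted p = 0.0926). Length-corrected, the change was -0.08 (adjusted p = 0.0511), and corrected for length and GC content it was 0.03 (adjusted p = 0.486). LAMA2, the alpha chain of muscle basement membrane (chromosome 1, 33765412 to 34359741, minus strand), had 4.99 and 5.43 FPKM in the knockdown against 4.95 and 5.20 FPKM in the control, with overlapping groups (log2 -0.04, adjusted p = 0.646, edgeR). Its sign turned with the unit, to 0.03 by limma on log2(FPKM + 1), length-corrected it passed as lower (-0.17, adjusted p = 0.0193), and on log2(TPM + 1) it passed as higher (0.23, adjusted p = 0.0431).

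The beta chains differed little between the groups in FPKM. LAMB1 (chromosome 9, 107670120 to 107747242, minus strand) had 132 and 133 FPKM in the knockdown against 132 and 131 FPKM in the control. LAMB2, the beta chain of synapses and of the kidney filter (chromosome 13, 31738282 to 31750623, minus strand), had 29.9 and 29.6 FPKM in the knockdown against 30.5 and 29.4 FPKM in the control. In FPKM the groups overlapped for both genes, and neither passed the test of counts (log2 0.04 and 0.02, SE 0.0198 and 0.0326, adjusted p = 0.106 and 0.593, edgeR). In CPM those of LAMB1 did not overlap, at 743 and 746 in the knockdown against 730 and 720 in the control. By limma on log2(TPM + 1), where the median gene was 0.14 higher, both passed as higher (0.24 and 0.21, adjusted p = 0.0019 and 0.00804). LAMB1 passed as higher with an offset for effective length (0.06, adjusted p = 0.00748) and as lower when length-corrected (-0.05, adjusted p = 0.0185).

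LAMC1, the gamma chain whose nidogen-binding loop is printed above (chromosome 9, 124283668 to 124405967, plus strand), had 114.0 and 114 FPKM in the knockdown against 101 and 102 FPKM in the control. The groups did not overlap, and the counts rose 1.14-fold (log2 0.19, SE 0.0194, adjusted p = 4.11e-17, edgeR). Length-corrected, its log2 difference was 0.04 and did not pass (adjusted p = 0.0720). Corrected for length and GC content it passed at 0.06 (adjusted p = 0.00418). Of the other laminin chains described, LAMC3 was the highest. LAMC3 had 3.83 and 3.43 FPKM in the knockdown against 3.60 and 3.43 FPKM in the control. LAMA3 and LAMB3 stayed under 0.4 FPKM in every library, and LAMB4, with 1 to 8 counts, was not tested. Of the 3 tested 0 were called by edgeR, DESeq2 called 0 and gave LAMB3 no adjusted p, and in edgeR 0 had an unadjusted p under 0.05.

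Summed over its chains in FPKM, each class of laminin gave a different picture, which did not hold in CPM or TPM. The alpha chains summed to 168 and 163 FPKM in the knockdown against 184 and 179 FPKM in the control. The beta chains summed to 163 and 163 FPKM in the knockdown against 163 and 160 FPKM in the control. The gamma chains LAMC1 and LAMC3 summed to 118 and 118 FPKM in the knockdown against 105 and 106 FPKM in the control. The alpha sum was the lower one in the knockdown and the gamma sum the higher one, without overlap between the groups. CPM gave the alpha sum the other way round, at 1098 and 1073 in the knockdown against 1031 and 1000.4 in the control. The deposited length of LAMA4, which enters FPKM and not CPM, differed between the groups. The beta sum was 907 and 908 CPM in the knockdown against 893 and 878 in the control. For the gamma sum CPM gave 873 and 874 in the knockdown against 762 and 770 in the control. Thus all 3 sums were higher in the knockdown in CPM, without overlap. In TPM too all 3 sums were higher in the knockdown, at 265 and 257 for the alpha chains against 249 and 242 in the control.

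The mixture of alpha chains also differed between the groups. LAMA4 made up 53.8% and 53.2% of the alpha chain FPKM in the knockdown against 62.6% and 62.6% in the control. LAMA1 made up 33.2% and 33.9% in the knockdown against 26.8% and 26.3% in the control. LAMA5 made up 9.81% and 9.41% in the knockdown against 7.79% and 8.10% in the control. LAMA2 made up 2.96% and 3.33% in the knockdown against 2.68% and 2.90% in the control. The groups did not overlap for any of the 4 shares, which sum with that of LAMA3, at most 0.143% in every library, to a fixed total and so are not independent. These shares use the deposited lengths. As shares of counts, with no division by length, the mean difference was -4.70 percentage points for LAMA4, in place of -9.05, and 4.24 for LAMA1, in place of 7.01. The LAMA2 share of counts was 3.14% and 3.29% in the knockdown against 3.44% and 3.62% in the control, so its direction turned, and the LAMA5 share of counts was 16.9% and 16.02% in the knockdown against 15.4% and 16.003% in the control. Neither kind of share takes out the trend of counts with transcript length. Length-corrected, the log2 change was 0.02 for LAMA1 (adjusted p = 0.530, edgeR) and -0.17 for LAMA4 (adjusted p = 1.82e-10, edgeR). The beta mixture was close to constant, with LAMB1 at 81.4% and 81.6% in the knockdown against 81.1% and 81.4% in the control. A two-sided exact permutation test of 2 libraries against 2 can give no p below 0.333, which was the p of each of the 4 alpha shares, and the p of the LAMB1 share was 0.667.

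**Figure D2:**
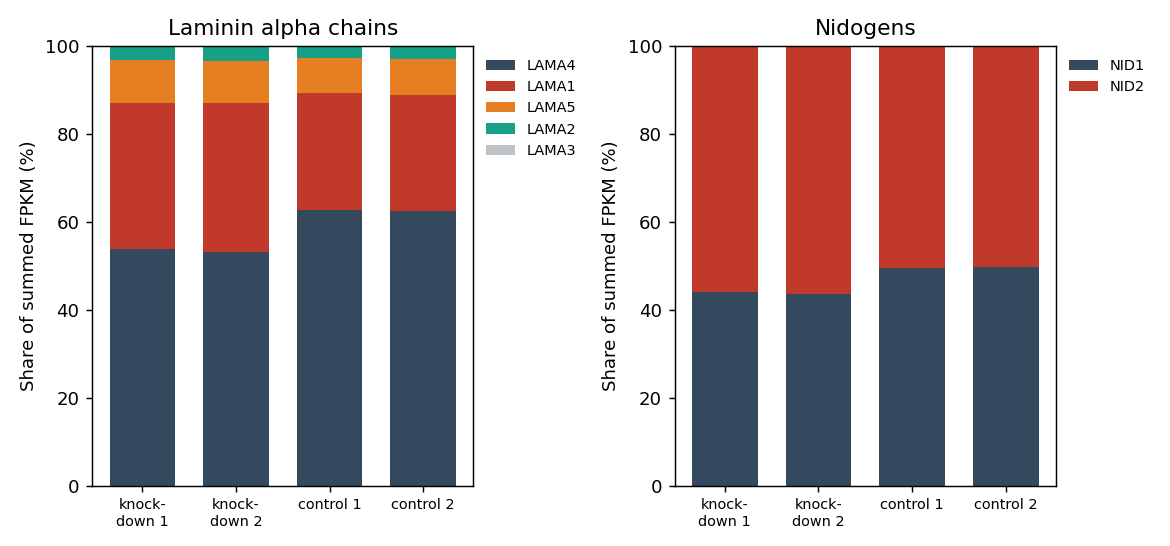
Share of summed FPKM held by each laminin alpha chain (left panel) and each nidogen (right panel), as stacked bars for knockdown libraries 1 and 2 and control libraries 1 and 2. LAMA4 holds about 9 percentage points less in the knockdown bars (mean difference -9.05) and NID2 holds 5.81 points more.

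The nidogens parted from each other. NID2 (chromosome 1, 181699098 to 181773084, minus strand) had 65.9 and 66.7 FPKM in the knockdown against 56.1 and 55.0 FPKM in the control. It rose 1.22-fold by counts (log2 0.29, SE 0.0255, adjusted p = 7.01e-21, edgeR). NID1, its paralogue (chromosome 14, 55239327 to 55346948, plus strand), had 52.0 and 51.5 FPKM in the knockdown against 55.1 and 54.5 FPKM in the control. For NID1 the groups did not overlap in FPKM either, but the change in counts did not pass (log2 -0.05, SE 0.0254, adjusted p = 0.102, edgeR). The 2 genes are alike in transcript length (5292 bases for NID2 and 5987 for NID1) and in GC content (56.2% and 55.6%). NID2 held 55.9% and 56.4% of the nidogen FPKM in the knockdown against 50.5% and 50.2% in the control (exact permutation p = 0.333, two-sided, the smallest possible). NID2 was called as higher in all 16 alternatives, and length-corrected it changed by 0.20 (adjusted p = 5.70e-13). NID1 passed as lower in 2 of the 16, at -0.14 length-corrected (adjusted p = 2.92e-07) and -0.11 corrected for length and GC content (adjusted p = 3.03e-05), and as higher on the TPM scale (0.14, adjusted p = 0.0139), where the median gene was also 0.14 higher.

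By counts HSPG2 showed the largest change of the 10 genes. Perlecan is a heparan sulfate proteoglycan that binds growth factors as well as laminin and nidogen. The gene (chromosome 6, 79849691 to 79958283, minus strand) had 47.6 and 47.0 FPKM in the knockdown against 35.6 and 35.5 FPKM in the control. By counts it was 1.35-fold higher (log2 0.44, SE 0.021, adjusted p = 2.24e-45, edgeR). It was called as higher in all 16 alternatives, at 0.18 length-corrected (adjusted p = 2.39e-14) and 0.31 corrected for length and GC content (adjusted p = 6.24e-28). Its transcript is the longest of the set, and 64.3% of its bases are G or C. LDLRAD2, which overlaps its end on the other strand, had 1.1 and 0 counts in the knockdown against 4.88 and 7.09 in the control.

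Calls among the 10 genes followed the treatment of length and the unit. With DESeq2 5 were called higher and 1 lower, where 34.6% of all genes were called, 16.8% higher and 17.8% lower. By limma on log2(FPKM + 1) 4 were called higher and 1 lower, where 45.3% of all genes were called, 15.6% higher and 29.7% lower. With an offset for effective length 6 were called higher and 1 lower, where 46.4% were called, 22.5% higher and 23.9% lower.

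Length-corrected, HSPG2 and NID2 were called higher and LAMA4, NID1, LAMB1 and LAMA2 lower, where 40.8% of all genes were called, 19.2% higher and 21.6% lower. Corrected for length and GC content, 4 were called higher and 4 lower, where 40.1% were called, 20.2% higher and 19.9% lower. By limma on log2(TPM + 1) 9 were called higher and 1 lower, where 53.2% were called, 39.5% higher and 13.7% lower. HSPG2 and NID2 stood on the higher side and LAMA4 on the lower side in each of these fits.

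**Figure D3:**
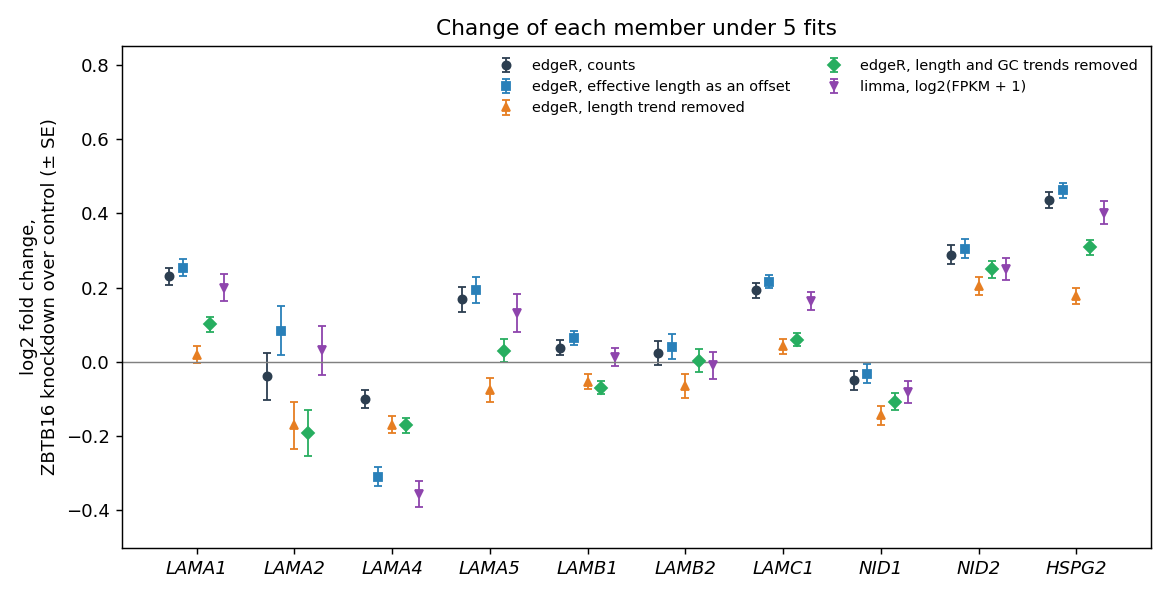
Log2 fold change of each member, knockdown over control, with its standard error, under edgeR on counts, edgeR with 3 treatments of length and GC content, and limma on log2(FPKM + 1). HSPG2, NID2, LAMA1 and LAMC1 stay above 0 and LAMA4 and NID1 stay below 0 under all 5 fits, while LAMA2, LAMA5, LAMB1 and LAMB2 lie on both sides of 0.

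HSPG2 and LAMA4 moved in opposite directions under every fit, and the 250 bases upstream of their RefSeq gene starts are shown for that reason. Both are read from Sscrofa 11.1, 5′ to 3′ on the minus strand, at chr6:79958284-79958533 for HSPG2 and chr1:78224565-78224814 for LAMA4. Capitals mark matches on either strand to the GC box GGGCGG, with overlapping matches joined. The CCAAT box CCAAT, the TATA box TATAAA and the AP-1 site TGANTCA were searched on both strands too, and neither window holds one.
HSPG2: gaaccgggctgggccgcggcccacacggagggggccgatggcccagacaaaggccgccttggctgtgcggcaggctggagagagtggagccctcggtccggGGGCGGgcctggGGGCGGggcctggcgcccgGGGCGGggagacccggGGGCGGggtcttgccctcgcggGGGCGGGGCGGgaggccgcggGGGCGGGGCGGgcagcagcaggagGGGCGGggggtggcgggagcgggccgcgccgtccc
LAMA4: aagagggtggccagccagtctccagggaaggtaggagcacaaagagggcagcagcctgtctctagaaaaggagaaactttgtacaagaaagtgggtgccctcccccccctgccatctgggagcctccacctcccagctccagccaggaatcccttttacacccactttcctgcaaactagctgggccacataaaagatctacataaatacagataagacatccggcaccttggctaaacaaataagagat
The HSPG2 window holds 9 GC boxes and 30 CpG sites and is 83.2% G or C. The LAMA4 window holds 0 GC boxes and 1 CpG site and is 51.6% G or C. Over the 20638 protein-coding genes with a complete window 44.5% held a GC box, 32.0% a CCAAT box, 10.4% a TATA box and 5.46% an AP-1 site, and the median was 57.2% G or C with 11 CpG sites. Of the other members NID2, which also moved opposite to LAMA4 under every fit, had 0 GC boxes. LAMA1 had 3, LAMA5 had 6, LAMC1 had 2 and LAMB1 had 1, and LAMA2, LAMB2 and NID1 had 0. A match is a run of letters in this window and was not tested as a binding site.

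Genes that work with the set were called in both directions, and their counts stand beside the 46.4% of all genes called, 22.7% higher and 23.8% lower. Of 26 other basement membrane components 5 rose, 4 fell and 17 did not pass, a smaller share than over all genes, with a median log2 change of 0.01. Length-corrected, 4 were called higher and 6 lower, with a median of -0.10, beside 19.2% and 21.6% of all genes. COL4A1, an alpha chain of type IV collagen, rose to 276 ± 1.17 FPKM in the knockdown, against 251 ± 0.233 FPKM in the control (SD, n = 2 each), a log2 change of 0.17 by counts (adjusted p = 2.19e-17, edgeR). COL4A2, another chain of type IV collagen, had 213 and 215 FPKM in the knockdown against 227 and 219 FPKM in the control. Its counts did not pass (log2 -0.016, adjusted p = 0.502, edgeR). COL4A5 fell (log2 -0.19, adjusted p = 0.0112, edgeR), and COL4A3, COL4A4 and COL4A6 did not pass. SPARC, a glycoprotein that binds collagens, rose by a log2 change of 0.18 to 1287 ± 10.1 FPKM in the knockdown, against 1196 ± 5.85 FPKM in the control. COL18A1, the source of endostatin, fell to 100.2 ± 1.44 FPKM in the knockdown, against 127 ± 0.467 FPKM in the control (log2 -0.31, adjusted p = 1.31e-29, edgeR). COL15A1, a related collagen, fell by 0.14 on the log2 scale, and its sign turned on the log2(TPM + 1) scale (0.05, adjusted p = 0.121, limma).

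Of 17 receptors for laminin and perlecan 9 rose, 5 fell and 3 did not pass, a larger share called than the 46.4% of all genes, with a median log2 change of 0.15. Length-corrected, 7 were called higher and 4 lower, with a median of 0.08, beside 19.2% and 21.6% of all genes. DAG1, which encodes both dystroglycan subunits, had 112 and 113 FPKM in the knockdown against 93.1 and 92.2 FPKM in the control (log2 0.30, SE 0.0215, adjusted p = 1.83e-28, edgeR). ITGA6, the alpha subunit of laminin-binding integrins, had 31.0 and 30.6 FPKM in the knockdown against 25.6 and 24.7 FPKM in the control (log2 0.33, adjusted p = 9.53e-17, edgeR). ITGB1, the partner subunit of most of these integrins, had 490.1 and 503 FPKM in the knockdown against 502 and 505 FPKM in the control (log2 0.02, adjusted p = 0.317, edgeR). Length-corrected, it passed as lower (-0.04, adjusted p = 0.0252). ITGA1, a receptor for collagens and laminin, rose by a log2 change of 0.45 at 8.56 and 8.55 FPKM in the knockdown against 6.46 and 6.22 FPKM in the control. Changes of single receptors are by counts, and only that of ITGB1 is also given length-corrected. GPC1, a cell surface glypican, rose by 0.29, and SDC1, the syndecan of epithelia, fell to 11.7 and 10.8 FPKM in the knockdown, against 17.2 and 17.6 FPKM in the control (log2 -0.59, adjusted p = 1.68e-17, edgeR).

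Dystroglycan binds laminin through a sugar chain built by a set of transferases. Of 11 of these genes tested 0 rose, 2 fell and 9 did not pass, a smaller share called than the 46.4% of all genes, with a median log2 change of 0.05. On log2(TPM + 1), where the median gene was 0.14 higher, 7 were called higher and 0 lower, beside 39.5% and 13.7% of all genes. Corrected for length and GC content 3 were called higher and 1 lower, beside 20.2% and 19.9% of all genes. Thus the direction of the calls depended on the fit. B3GALNT2 fell by 0.26 on the log2 scale (adjusted p = 2.16e-05, edgeR) and POMGNT1 by 0.14 (adjusted p = 0.0111). The POMGNT1 call was lost with DESeq2 (adjusted p = 0.122), when length-corrected (0.133), without control replicate 2 (0.138) and without knockdown replicate 2 (0.0804). LARGE2 had a log2 change of 0.43 (adjusted p = 0.127) at 1.34 and 1.41 FPKM in the knockdown against 0.94 and 1.10 FPKM in the control, and POMT1 one of 0.11 (adjusted p = 0.201).

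Perlecan carries heparan sulfate, and of 22 genes that build or edit this sugar 7 rose, 3 fell and 12 did not pass, with a median log2 change of 0.10. The share called was close to the 46.4% of all genes. On log2(TPM + 1) 19 were tested, and 12 were called higher and 0 lower, beside 39.5% and 13.7% of all genes. Length-corrected, 5 were called higher and 3 lower, with a median of 0.04, beside 19.2% and 21.6% of all genes. SULF2 and SULF1, secreted enzymes that remove sulfate groups from heparan sulfate, rose by log2 changes of 0.39 and 0.19. SULF2 had 34.2 and 33.6 FPKM in the knockdown against 26.9 and 26.5 FPKM in the control (adjusted p = 5.78e-18, edgeR). EXT1, a polymerase of the chain, rose by 0.23 to 40.6 ± 0.156 FPKM in the knockdown, against 35.7 ± 1.70 FPKM in the control. NDST1, which starts sulfation of the chain, rose by 0.24 (adjusted p = 1.84e-08, edgeR).

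**Figure D4:**
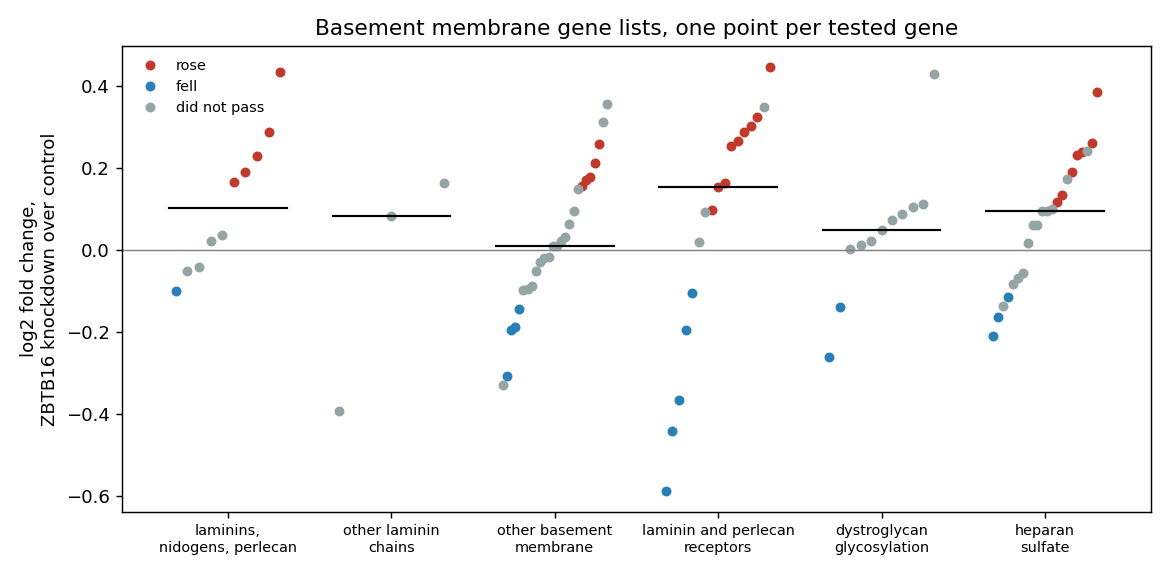
Log2 fold change by counts, knockdown over control, of each tested gene in 6 lists, coloured by whether it rose, fell or did not pass, with the list's median as a line. The medians lie between 0.01 (other basement membrane components) and 0.15 (receptors), and rises and falls occur in the same lists in all but the other laminin chains and the dystroglycan glycosylation genes.

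The libraries are labelled as immature spermatogonia, but markers of some other testis cell types summed far higher than those of the germ line. The peritubular, fibroblast and Sertoli sums below stand beside germ line sums of 20.9 and 19.6 FPKM in the knockdown and 22.6 and 23.3 FPKM in the control. Sums over different markers do not give the proportions of cells. Some of the marker lists differed between the groups. Calls are by edgeR on counts without the length correction, beside 46.4% of all genes called, 22.7% higher and 23.8% lower. Of 11 Sertoli cell markers tested 8 rose, 2 fell and 1 did not pass, and their summed level was 973 and 998 FPKM in the knockdown against 807 and 793 FPKM in the control. Of 7 peritubular myoid markers 6 rose and 1 fell, with overlapping sums of 5794 and 5693 FPKM in the knockdown against 5841 and 5755 FPKM in the control. Of 7 fibroblast markers 1 rose, 4 fell and 2 did not pass, with sums of 2569 and 2549 FPKM in the knockdown against 2765 and 2756 FPKM in the control. Of 5 macrophage markers tested 3 fell, with sums over 10 genes of 55.8 and 50.6 FPKM in the knockdown against 109.7 and 112 FPKM in the control. Of 8 endothelial markers 1 fell and 7 did not pass, with sums of 20.4 and 18.4 FPKM in the knockdown against 23.0 and 21.7 FPKM in the control. Of 6 Leydig cell markers tested 1 fell and 5 did not pass, with sums over 7 genes of 202 and 213 FPKM in the knockdown against 242 and 237 FPKM in the control.

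In TPM the summed level was higher in the knockdown for the peritubular and fibroblast lists as well as the Sertoli list, lower for macrophages, and overlapping between the groups for the Leydig and endothelial lists.

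Germ line transcripts were present. Calls here too stand beside 46.4% of all genes called, 22.7% higher and 23.8% lower, without the length correction. The 7 germ line markers summed to 20.9 and 19.6 FPKM in the knockdown against 22.6 and 23.3 FPKM in the control, where 3 rose, 1 fell and 3 did not pass. DDX4, a helicase that defines the germ line, had 2.0 and 1.9 FPKM in the knockdown against 2.3 and 2.0 FPKM in the control and did not pass (adjusted p = 0.601, edgeR). DAZL, TEX15 and PIWIL2, also germ line genes, rose by log2 changes of 0.54, 0.48 and 0.42, and DND1 fell by 1.27 on the log2 scale. DND1 had 3.14 and 2.14 FPKM in the knockdown against 6.77 and 6.84 FPKM in the control. That gap is wider than the gap between the germ line sums, so the other germ line markers together summed higher in the knockdown. Of 10 tested markers of undifferentiated spermatogonia 3 rose, 2 fell and 5 did not pass, and 12 found in the files summed to 199.6 and 192 FPKM in the knockdown against 223 and 217 FPKM in the control. That list holds ZBTB16, the knocked-down gene, as 1 of the 2 that fell, and ITGA6, described above as a receptor, as 1 of the 3 that rose. Of the others SALL4 and FOXO1 rose and UCHL1 fell. SALL4 was low, at 0.51 and 0.51 FPKM in the knockdown against 0.25 and 0.27 FPKM in the control. GFRA1 and RET, also of that list, stayed under 1 FPKM in every library and did not pass. UCHL1 had 89.05 and 85.25 FPKM in the knockdown against 121.72 and 120.41 FPKM in the control. That gap is wider than the gap between the sums of the list, so its other genes together summed higher in the knockdown. In TPM the sums of the spermatogonial list were the higher ones in the knockdown, at 314 and 303 against 301 and 292 in the control, and those of the germ line list overlapped. NANOS2 had 0 and 3 counts in the knockdown against 1 and 0 in the control, and LIN28A had 1 or 2 counts in every library. The libraries are named by their label here, and which cells made the laminin, nidogen and perlecan transcripts was not measured. In such bulk libraries fewer cells of a type and less RNA per cell cannot be told apart, and the part of these markers in the results was not tested.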

How the data were processed

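Per the labels' protocols, the submitters cleaned the reads (SOAPnuke 2.1.0), aligned them to Sscrofa 11.1 (HISAT2 2.2.1), mapped them to transcripts (bowtie2 2.3.5) and counted them (RSEM 1.3.3). The authors deposited expected counts, FPKM, TPM and transcript lengths in bases per gene and library. No source used here says whether strand entered the counting. LAMA1 and LAMB1 each overlap a long noncoding RNA on the other strand, with at most 9 and 32.3 counts.

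Expected counts were rounded and tested with edgeR 4.0.16 (R 4.3.3, TMM, filterByExpr with a minimum count of 10 and a minimum total of 15, quasi-likelihood, two-sided, no covariate). Squared differences between replicates were 1.15 times those of sampling in the control and 1.26 times in the knockdown, so their files differ by little more than counting error (common biological coefficient of variation 0.0129). The p-values measure the spread between 2 such libraries a group, which may be largely technical. Alternatives were DESeq2 1.42.0, limma 3.58.1, other scalings and filters, 2 treatments of length (mgcv 1.9.3), a replicate block and leaving out each library. GC content with length, TPM, and shares of counts were added after seeing the data. GC content and coordinates came from RefSeq on the same build, for 26265 of 26921 genes. The edgeR step was tested on simulated data.

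Members and gene lists were chosen with earlier results of these data known. Beside ZBTB16, all members, LAMA3, LAMB3, LAMB4, LAMC3, ITGA6, ITGB1 and DAG1, up to 4 genes per list were named, those with the smallest p at an FPKM of at least 1. The other type IV collagen chains were named beside COL4A1 after their values were seen. Cell type markers named one by one were chosen after their values were seen. One item of the lists is not reported here, and sums and shares leave it out.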

Additional observations from a re-analysis of the deposited data

How the results depend on the processing

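The calls of HSPG2, NID2 and LAMA4 held under all 16 alternatives, and leaving out any 1 library left 5 members higher and 1 lower. The count of members called higher was 2 with the length trend removed and 9 on the log2(TPM + 1) scale, and that of members called lower was 4 with the length trend removed and 4 when the GC trend was taken out too. Of all genes, 3574 were called higher and 3745 lower. DESeq2 called 2343 and 2472, and limma on log2(TPM + 1) 5446 and 1893. Genes called higher numbered 2038 on log2(FPKM + 1), 2034 on log2(FPKM + 0.1) and 1421 on log2(FPKM + 1) without a filter. Over the 5 related lists 21 genes were called higher and 14 lower. These were 40 and 3 on log2(TPM + 1), 11 and 9 on log2(FPKM + 1) without a filter, and 7 lower with DESeq2. Without 1 library the counts lay between 2882 and 3038 higher and between 3154 and 3227 lower for all genes, and between 19 and 20 higher and 10 and 12 lower for the lists. The share differences without 1 library lay between 6.69 and 7.33 points for LAMA1, 0.171 and 0.542 for LAMA2, -9.35 and -8.75 for LAMA4, 1.46 and 1.86 for LAMA5, 0.0987 and 0.441 for LAMB1, and 5.53 and 6.08 for NID2. As shares of counts the LAMA2 difference was -0.316 points.

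Signs turned for small changes. By limma on log2(FPKM + 1), log2(FPKM + 0.1) and log2(FPKM + 1) without a filter, LAMA2 was at 0.031, 0.036 and 0.031, LAMB2 at -0.0097, -0.0099 and -0.0097, and ITGB1 at -0.021, -0.021 and -0.021. LAMA2 was at 0.084 with the effective length as an offset. With the length trend removed LAMA5 was at -0.075, LAMB1 at -0.054, LAMB2 at -0.065, LAMA3 at -7e-04, LAMC3 at -0.013 and ITGB1 at -0.043. With GC content removed as well LAMB1 was at -0.070 and ITGB1 at -0.083. On log2(TPM + 1) LAMA2 was at 0.23, NID1 at 0.14, COL15A1 at 0.050 and POMGNT1 at 0.032. Without 1 library LAMB2 lay between -7e-04 and 0.046, LAMA3 between -0.032 and 0.32, and LAMC3 between -0.0058 and 0.16. The causes were not tested.

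Replicate numbers did not pair the samples by their values (correlation of same-numbered deviations 0.039 over 11060 genes). With the replicate number as a block 5 members were called higher and 1 lower, and of the named genes 1, ITGB1, changed its call, passing at a log2 change of 0.021 (adjusted p = 0.0158). With 2 libraries a group the spread rests on all genes together, and genes under a few counts, such as LAMB4, could not be tested.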
